A study of Mus musculus with 10 samples.

Results

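The 8 genes Atf4, Ddit3, Trib3, Asns, Psat1, Phgdh, Chac1 and Sesn2 were read in the pancreas tail of 12-week-old female mice, where the series asks, by its title, how the insulin receptor of acinar cells bears on digestive enzymes and inflammation. They were taken by symbol from a deposited table of raw gene counts, as 8 of its 24421 genes, and no measured value entered that choice. Genotype at Insr, the insulin receptor gene, set the groups apart. There were 3 libraries labelled Insr WT with 0 floxed alleles, 3 labelled Insr Het with 1 and 4 labelled Insr KO with 2, each from a single mouse. All groups also carried Ptf1aCreER, a Cre recombinase under a gene of the enzyme-making acinar cells, and the nTnG reporter. Cre acts on acinar cells, whereas the RNA came from a whole piece of tissue, and 1 further WT mouse that a label counts was not analysed here. Libraries are named by genotype and mouse number, as in WT-2404.

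ATF4 is the transcription factor at the centre of the integrated stress response. When a stress kinase phosphorylates the initiation factor eIF2, most protein synthesis slows while Atf4 mRNA is translated more. ATF4 protein then switches on genes that make, import and charge amino acids. Acinar cells make very large amounts of secreted enzyme, so this pathway and the related response of the endoplasmic reticulum are much studied in them. Because ATF4 is controlled largely at translation, its mRNA does not measure its protein. Ddit3 encodes CHOP, a partner factor of prolonged stress. Trib3 encodes a pseudokinase that restrains ATF4 and AKT, Chac1 an enzyme that degrades glutathione, and Sesn2 a leucine-binding inhibitor of mTORC1. Asns encodes asparagine synthetase. Phgdh and Psat1 encode consecutive steps of serine synthesis from a glycolytic intermediate.

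ATF4 and its C/EBP partners bind composite elements with the core letters TGATGNAA, where N is any base, so the promoters were searched for these letters on both strands. The windows are the RefSeq sequences of build GRCm38.p6, from 250 bases before to 50 bases after each annotated start, and all 8 genes had one (Psat1 had 2). The letters were found in 3 of the 8 genes (37.5%), against 1219 of 27025 genes with a window (4.51%) and 1304 of 32851 windows (3.97%). The 3 sites are shown because they are what these promoters share with the element. Each is 30 bases of the gene's own strand, read 5′ to 3′, with the match or its reverse complement in capitals.
Chac1: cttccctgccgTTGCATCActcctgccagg
Asns: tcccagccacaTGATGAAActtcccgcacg
Trib3: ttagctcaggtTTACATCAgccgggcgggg
The Chac1 site, at chr2:119351038-119351067 on the plus strand, holds the letters as their reverse complement, and its first capital lies 193 bases before the start. The Asns site, at chr6:7693214-7693243 on the minus strand, holds them in the direction of the gene, beginning 23 bases before the RefSeq start. The Trib3 site, at chr2:152344028-152344057 on the minus strand, holds the reverse complement from base 15 counted from the RefSeq start. These RefSeq starts differ from those of the GENCODE loci given below. By GENCODE the Asns site lies inside the locus, which starts at 7693254. The capitals of the Trib3 site lie before its GENCODE start at 152344032. A match describes letters only, and the windows of the other 5 genes hold no match within these bases. The 3 genes differed widely in level, as the values below show.

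The libraries themselves were unequal before any genotype was considered. They held 11718559 to 19024351 gene counts, and 27 digestive enzyme genes took 58.3% to 77.3% of these in 9 libraries but 15.7% in WT-2404. The extraction text attached to WT-2404, which speaks of mice of all 3 groups, names an RNeasy Micro Kit, and that of the other 9 an RNeasy kit, so the labels do not settle whether the kit differed. Levels are given as CPM, counts-per-million of a library size scaled by TMM, a factor that evens out the bulk of genes and was highest in WT-2404 (3.53) and lowest in KO-2126 (0.596). Summed myeloid markers (12 of 12 detected) stood at 471 to 1883 CPM in WT, 253 to 385 in Het and 144 to 542 in KO. Summed fibroblast and matrix markers (12 of 12) stood at 1798 to 6448, 707 to 1439 and 635 to 1619 CPM in the same order. Ductal markers (10 of 10) were at 787 to 1274, 382 to 655 and 391 to 646 CPM, and islet markers (10 of 10) at 479 CPM in WT-2404 and 3075 to 9922 CPM elsewhere. Lymphoid markers (9 of 10 in the table, 9 detected) were at 17.5 to 40.0 CPM in WT, 8.29 to 8.65 in Het and 2.42 to 23.5 in KO. The myeloid, fibroblast and ductal markers were highest in WT-2404. Adipocyte markers (6 of 6) were at 37.2 to 47.4 CPM in WT, 70.3 to 81.9 in Het and 49.1 to 93.0 in KO. In sum WT thus lay below both other groups for these markers, and above both for the fibroblast and ductal markers. Such separation was common among single genes. Of 13688 tested genes, 2177 did not overlap between KO and WT, and 3392 between Het and WT, in either direction. Most of the adipocyte sum was Fabp4, which itself overlapped between WT (29.6 to 37.6 CPM) and KO (32.9 to 78.4 CPM). Endothelial markers (6 of 6) were at 89.6 to 139, 121 to 139 and 88.7 to 173 CPM in the same order of groups. Of the markers in the table, the amylase gene Amy2a5 was at 0 in all 3 WT libraries and at most 1.32 CPM elsewhere, and no other was at 0 throughout a group. The part of these cell types in the results was not tested. Insr itself was at 21.0 to 40.5 CPM in WT, 28.2 to 44.2 in Het and 22.7 to 35.4 in KO. In KO its log2 difference from WT was 0.09 (SE 0.26, edgeR adjusted p = 0.864), so in whole tissue it does not check the genotype labels.

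The 8 genes lie on 7 chromosomes of GRCm38, by the GENCODE annotation, and counts cover their exons. Among the stress genes Atf4 is at chr15:80255184-80257541 and Ddit3 at chr10:127290774-127296288, both on the plus strand. Trib3 is at chr2:152337422-152344032 (minus), Chac1 at chr2:119351229-119354381 (plus) and Sesn2 at chr4:132492032-132510501 (minus). The synthesis genes are all on the minus strand, Asns at chr6:7675169-7693254, Psat1 at chr19:15904678-15947337 and Phgdh at chr3:98313170-98339990.

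The 8 genes covered a wide span of levels. Per kilobase of annotated exon, the median CPM over the 10 libraries was 61.5 for Asns, 41.4 for Atf4, 26.5 for Phgdh and 4.97 for Psat1. It was 2.17 for Ddit3, 1.63 for Chac1, 0.927 for Sesn2 and 0.730 for Trib3. Neighbours in this order had overlapping ranges over the libraries, whereas the range of Atf4 (20.8 to 58.0 CPM per kilobase) lay wholly above that of Psat1 (2.08 to 10.1). On this TMM scale the enzymes of amino acid synthesis were also among the most variable. Asns ran from 9.97 to 100.1 CPM per kilobase. The highest library exceeded the lowest 9.63-fold for Phgdh, 9.18-fold for Chac1, 5.03-fold for Trib3 and 4.84-fold for Psat1, against 2.79-fold for Atf4, 2.13-fold for Sesn2 and 1.98-fold for Ddit3. These spans depend on the scale. On library size alone, with no TMM factor, Asns ran from 96.4 to 163 CPM and Phgdh from 48.2 to 81.5 CPM. All 8 passed the filter on low counts. Trib3 had the lowest single value, 10 counts in KO-2070, and counting error weighs most on Trib3, Chac1, Ddit3 and Sesn2.

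**Figure D1:**
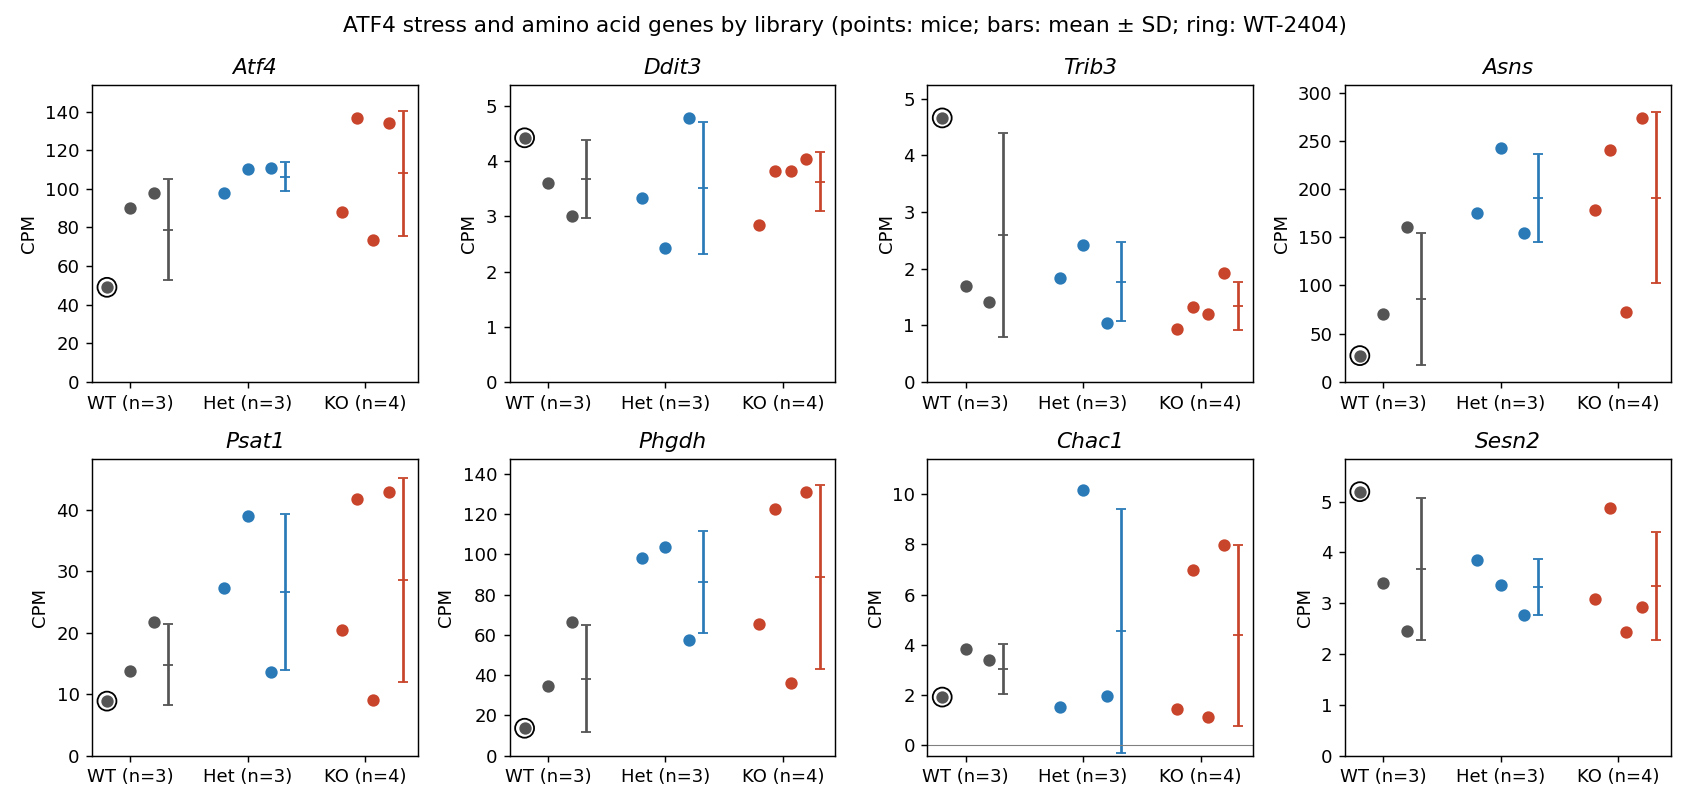
Level of each gene in CPM (vertical axis) in each library, by group (horizontal axis), with bars for mean ± SD and a ring around WT-2404. WT-2404 is the lowest of all libraries for Atf4 (49.0 CPM), Asns (27.3), Phgdh (13.6) and Psat1 (8.87) and the highest for Trib3 (4.66) and Sesn2 (5.19). The Het bar of Chac1 reaches below 0 because its SD (4.87) exceeds its mean (4.54).

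The comparison of KO with WT asks what loss of both floxed alleles does to these genes, and that of Het with WT what loss of 1 does. None of the 8 genes passed the threshold in either, by edgeR's quasi-likelihood test with Benjamini-Hochberg adjustment over 13688 tested genes at 0.05. Over all genes 0% passed in each comparison. At an unadjusted p under 0.05, 9.6% of all genes were higher and 13.9% lower in KO against WT, and 8.26% higher and 11.6% lower in Het against WT. Of the 8 genes, only Phgdh in KO against WT reached that level, on the higher side. DESeq2 called 1009 genes in the KO comparison and 400 in the Het comparison, and none of the 8 was among them. In whole tissue, fewer cells of a type and less RNA per cell cannot be told apart. Both comparisons use the same 3 WT libraries, so their values below stand side by side and are not independent.

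Atf4 was at 49.0, 90.03 and 97.6 CPM in WT-2404, WT-1860 and WT-2067. It was at 97.7, 110 and 111 CPM in Het-2066, Het-1770 and Het-2042, and at 87.8, 137, 73.4 and 134 CPM in KO-2079, KO-2070, KO-2124 and KO-2126. Every Het library lay above every WT library, by a margin of 97.7 against 97.6, while 2 KO libraries lay inside the WT range and 2 above it. Groups that did not overlap, with Het higher, were found for 11.3% of all genes. On the log2 scale Atf4 differed from WT by 0.45 in KO (SE 0.30, edgeR adjusted p = 0.364) and 0.43 in Het (SE 0.32, edgeR adjusted p = 0.436). For single mouse values an exact permutation test, two-sided, returned p = 0.1 for Het, which is the smallest that 3 against 3 mice allow, and p = 0.286 for KO. Without WT-2404 the log2 fold changes were 0.19 in KO and 0.19 in Het.

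The 3 synthesis enzymes had the highest fold changes among the 8 genes. Asns, which makes asparagine from aspartate, was at 27.3, 69.9 and 161 CPM in WT (order of mice as for Atf4). It was at 176, 242 and 155 CPM in Het and at 178, 240, 72.9 and 274 CPM in KO. WT-2404 and WT-1860 were low and WT-2067 lay within the range of the other groups, as KO-2124 lay within that of WT. Asns had a log2 fold change of 1.15 in KO (SE 0.56, 95% interval -0.08 to 2.39, edgeR adjusted p = 0.237) and 1.15 in Het (SE 0.59, edgeR adjusted p = 0.287). The KO value moved most when WT-2404 or WT-2067 was left out, and less without a KO library (0.93 without KO-2126, 1.40 without KO-2124). Without WT-2067 Asns rose in KO against WT, with a log2 fold change of 1.99 (edgeR adjusted p = 0.0389), in a fit where 6.22% of all genes were called higher. Without WT-2404 it was 0.71, and over all alternatives the adjusted p ran from 0.0389 to 0.629.

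Phgdh encodes the first enzyme of serine synthesis. Its level was 13.6, 34.8 and 66.3 CPM in WT, 98.1, 104 and 57.3 CPM in Het, and 65.5, 123, 35.9 and 131 CPM in KO. The groups overlapped through WT-2067, Het-2042, KO-2079 and KO-2124. Phgdh had a log2 fold change of 1.22 in KO (SE 0.55, 95% interval 0.01 to 2.42, edgeR adjusted p = 0.210, unadjusted p = 0.0483) and 1.18 in Het (SE 0.58, edgeR adjusted p = 0.273). It was 0.79 in KO and 0.78 in Het without WT-2404, and 1.89 and 1.85 without WT-2067.

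Psat1, the transaminase that follows PHGDH, was less abundant. It stood at 8.87, 13.7 and 21.8 CPM in WT, 27.2, 39.0 and 13.7 CPM in Het, and 20.5, 41.7, 9.08 and 42.9 CPM in KO. Het-1770, KO-2070 and KO-2126 were the highest, and KO-2124 was close to WT-2404, the lowest. Its log2 fold change stood at 0.94 in KO (SE 0.54, edgeR adjusted p = 0.300) and 0.85 in Het (SE 0.57, edgeR adjusted p = 0.396). Leaving out a library gave 0.65 (without WT-2404) to 1.34 (without WT-2067) in KO and 0.47 (without Het-1770) to 1.25 (without WT-2067) in Het. A processed pseudogene on the other strand, Gm3329, overlaps the annotated Psat1 locus, and whether counting used the strand is not given in the sources used here.

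Chac1, which cleaves glutathione, was high in some Het and KO libraries and low in the others. It was at 1.90, 3.83 and 3.37 CPM in WT, 1.49, 10.2 and 1.96 CPM in Het, and 1.42, 6.98, 1.11 and 7.98 CPM in KO. Thus Het-1770, KO-2070 and KO-2126 lay between 6.98 and 10.2 CPM and the other Het and KO libraries between 1.11 and 1.96 CPM, with the WT libraries at 1.90 to 3.83 CPM. The low values rest on 17 to 32 counts a library and the high ones on 53 to 109. These 3 libraries were also the highest of the 10 for Psat1 (39.0 to 42.9 CPM), Phgdh (104 to 131) and Asns (240 to 274), and in their digestive enzyme share (76.1% to 77.3%). They had the lowest TMM factors too (0.637, 0.631 and 0.596), and a lower factor gives a higher CPM from the same counts. On library size alone WT-2404 was the highest for Chac1 (6.73 CPM) and Psat1 (31.3 CPM). For Asns KO-2079 then exceeded KO-2070 (158 against 152 CPM), and for Phgdh Het-2066 was the highest (81.5 CPM, against 78.2 in KO-2126). That these 3 libraries stood out was seen in the values and is given without a test. Chac1 had a log2 fold change of 0.49 in KO (SE 0.80, 95% interval -1.29 to 2.26, edgeR adjusted p = 0.739) and 0.58 in Het (SE 0.85, edgeR adjusted p = 0.717), so a change of either sign as large as 1 was not distinguishable.

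Trib3 was low in most libraries and high in one. It was at 4.66, 1.69 and 1.41 CPM in WT, 1.84, 2.42 and 1.04 CPM in Het, and 0.927, 1.32, 1.20 and 1.92 CPM in KO. WT-2404 stood above every other library, and the remaining WT libraries lay inside the ranges of Het and KO. Against WT, Trib3 had a log2 fold change of -0.998 in KO (SE 0.48, 95% interval -2.05 to 0.05, edgeR adjusted p = 0.230) and -0.60 in Het (SE 0.52, edgeR adjusted p = 0.511). Without WT-2404 it was -0.24 in KO and 0.18 in Het, and without Het-2042 it was -0.31 in Het. Under library size alone, with no scaling factor, Trib3 was called lower in KO (-2.61, edgeR adjusted p = 0.0321) and in Het (-2.36, edgeR adjusted p = 0.0471). That scale moved the median of all genes to -1.17 and -1.36 and called 20.7% and 22.8% of them lower.

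Ddit3, the CHOP gene, and Sesn2, the leucine sensor, varied least on the TMM scale. On library size alone they varied more, from 1.54 to 15.6 CPM for Ddit3 and from 1.75 to 18.4 CPM for Sesn2. The values that follow are on the TMM scale. Ddit3 was at 4.43, 3.61 and 3.00 CPM in WT, 3.33, 2.42 and 4.79 CPM in Het, and 2.84, 3.82, 3.82 and 4.04 CPM in KO. The groups shared nearly the same range. Against WT its log2 fold change came to -0.03 in KO (SE 0.29, 95% interval -0.66 to 0.59, edgeR adjusted p = 0.957) and -0.06 in Het (SE 0.31, edgeR adjusted p = 0.918). The end of Ddit3 overlaps Mars, a tRNA synthetase gene on the other strand, and its start overlaps Gm4189. Sesn2 was at 5.19, 3.39 and 2.45 CPM in WT, 3.86, 3.35 and 2.76 CPM in Het, and 3.09, 4.87, 2.44 and 2.93 CPM in KO. Its highest libraries were WT-2404 and KO-2070, in different groups. Sesn2 had a log2 fold change of -0.18 in KO (SE 0.33, 95% interval -0.90 to 0.53, edgeR adjusted p = 0.761) and -0.17 in Het (SE 0.35, edgeR adjusted p = 0.805). The noncoding gene Gm12981 lies within the Sesn2 locus, on the same strand.

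As a group, 5 of the 8 genes had a positive and 3 a negative log2 fold change in KO against WT, with a median of 0.47, against 0.03 over all tested genes. In Het against WT the counts were the same and the median was 0.51, against 0.0047 over all genes. The genes below 0 were Ddit3, Trib3 and Sesn2. Split and median both turned on single libraries. Without WT-2404 7 of 8 were positive in KO against WT, with a median of 0.19, and 8 of 8 in Het against WT, with a median of 0.26, and none passed. Without KO-2126 4 of 8 were positive in KO against WT, with a median of 0.15, and without KO-2070 5 of 8, with 0.24. Without Het-1770 the Het median was 0.28. Over all fits that leave out a library the median ran from 0.15 to 0.69 in KO and from 0.26 to 0.68 in Het. With limma voom it was 0.14 in KO, with 4 of 8 positive, and 0.19 in Het. On library size alone the median was -0.72 in both comparisons, above the shift of all genes on that scale.

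**Figure D2:**
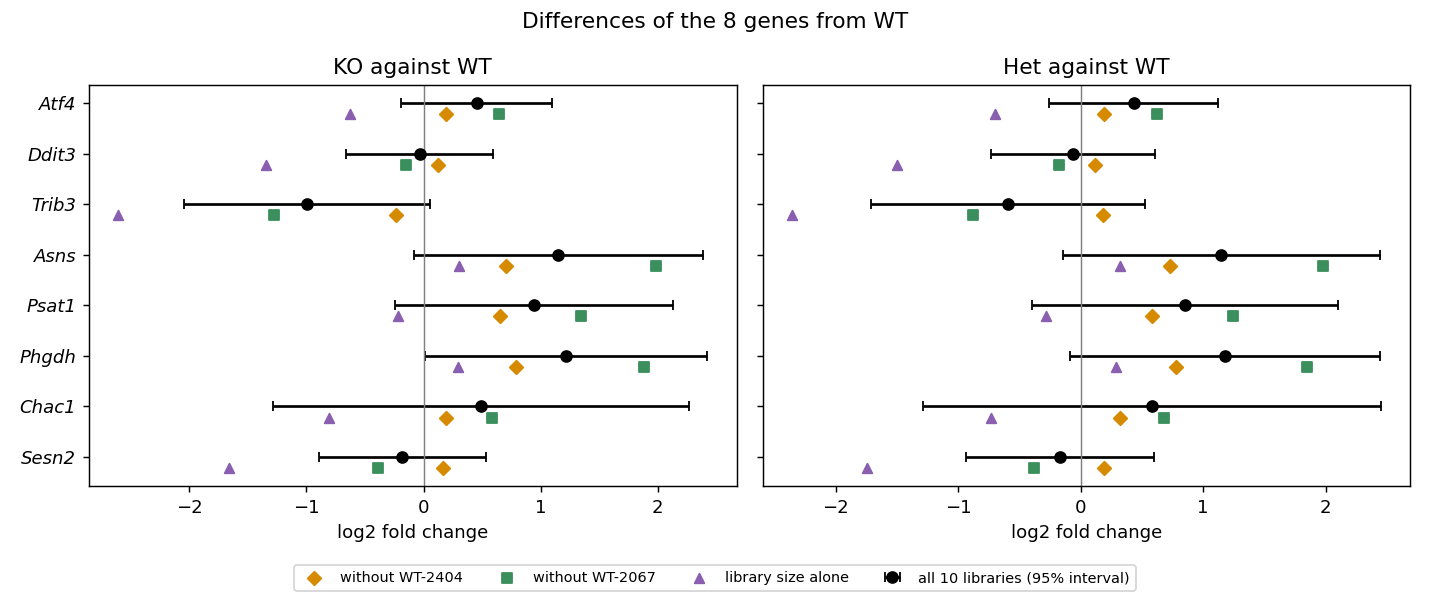
Log2 fold change (horizontal axis) of each gene in KO against WT (left) and Het against WT (right), as black points with 95% intervals from all 10 libraries, beside the values without WT-2404, without WT-2067 and on library size alone. Asns, Phgdh and Psat1 move closer to 0 without WT-2404 (Asns in KO from 1.15 to 0.71) and away from it without WT-2067 (1.99), while library size alone shifts all 8 genes lower.

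KO against Het asks whether the second floxed allele adds to the first. The log2 fold changes lay between -0.40 (Trib3) and 0.09 (Psat1), all with edgeR adjusted p = 1.0, and their median was 0.01. For Asns the difference was 0.0014 (95% interval -1.19 to 1.20), so an added change of up to 1.19 in either direction lies within its error. Over all genes 0% passed, and 0.351% were lower and 0.402% higher at an unadjusted p under 0.05, with none of the 8 among them. A slope over 0, 1 and 2 floxed alleles passed for 0% of all genes. Trib3 had the lowest adjusted p among the 8 (slope -0.50 on the log2 scale for each allele, SE 0.23, edgeR adjusted p = 0.235) and Phgdh the highest slope (0.58, SE 0.29, edgeR adjusted p = 0.272).

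On the TMM scale the level of the synthesis enzymes and Atf4 ran with the digestive enzyme share of a library, the share of its gene counts taken by the 27 enzyme genes. Over the 10 libraries Pearson's r of log2 CPM with this share was 0.93 for Asns, 0.91 for Phgdh, 0.90 for Atf4 and 0.71 for Psat1, and Spearman's rho was 0.84, 0.90, 0.94 and 0.83. Permutation p adjusted over the 8 genes was 0.00016, 0.00016, 0.00058 and 0.00058 for r, and 0.0092, 0.00344, 0.00184 and 0.0092 for rho. Without WT-2404 and WT-1860, the 2 libraries farthest from the median share, r was 0.98 for Asns and 0.93 for each of Phgdh, Atf4 and Psat1 (8 libraries). By rank Asns did not pass there, with rho 0.69 (permutation p adjusted over the 8 genes, 0.111), while Phgdh had 0.81, Atf4 0.95 and Psat1 0.81 (0.0439, 0.00904 and 0.0439). Without WT-2404 alone r was 0.98, 0.94, 0.81 and 0.85 for Asns, Phgdh, Atf4 and Psat1, and 0.132% of all 13688 genes had a higher r than Asns. For Phgdh, Psat1 and Atf4 that share of genes was 1.83%, 7.16% and 9.96%. The median r of all genes was -0.06 over these 9 libraries. On library size alone Atf4 ran the other way. It was at 173 CPM in WT-2404 and 141 CPM in WT-1860, the libraries of lowest share, and at 70.4 to 99.7 CPM in the rest. Psat1 was then also highest in WT-2404 (31.3 CPM), while Asns and Phgdh stayed lowest there (96.4 and 48.2 CPM). No correlation with the share was computed on that scale. Groups of 3 and 4 libraries are too small for a correlation within a genotype.

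The other 4 genes did not show this over all libraries. Pearson's r was 0.37 for Chac1 (rho 0.65), -0.40 for Ddit3 (rho -0.08), -0.48 for Sesn2 (rho -0.10) and -0.70 for Trib3 (rho -0.05), with permutation p adjusted over the 8 genes of 0.328, 0.306, 0.235 and 0.114 for r. Trib3 and Sesn2 turned on the farthest libraries. Without WT-2404 and WT-1860 r was 0.48 for Trib3 and 0.58 for Sesn2, and that of Chac1 was 0.85 (permutation p adjusted over the 8 genes, 8 libraries, 0.00394). The enzyme counts enter the library total, so levels were also set against the counts outside the enzyme list. Those counts are what the enzymes leave of a library, so this scale depends on the share as well. On that scale r was 0.95 for Asns, 0.92 for Phgdh, 0.77 for Atf4 and 0.63 for Psat1, with permutation p adjusted over the 8 genes of 0.00028, 0.00028, 0.0328 and 0.0274. Spearman's rank correlation was 0.87, 0.85, 0.71 and 0.82, with adjusted permutation p of 0.0128, 0.0128, 0.0562 and 0.0157, so Atf4 did not pass by rank. The part of the enzyme share in the genotype comparisons was not tested.

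**Figure D3:**
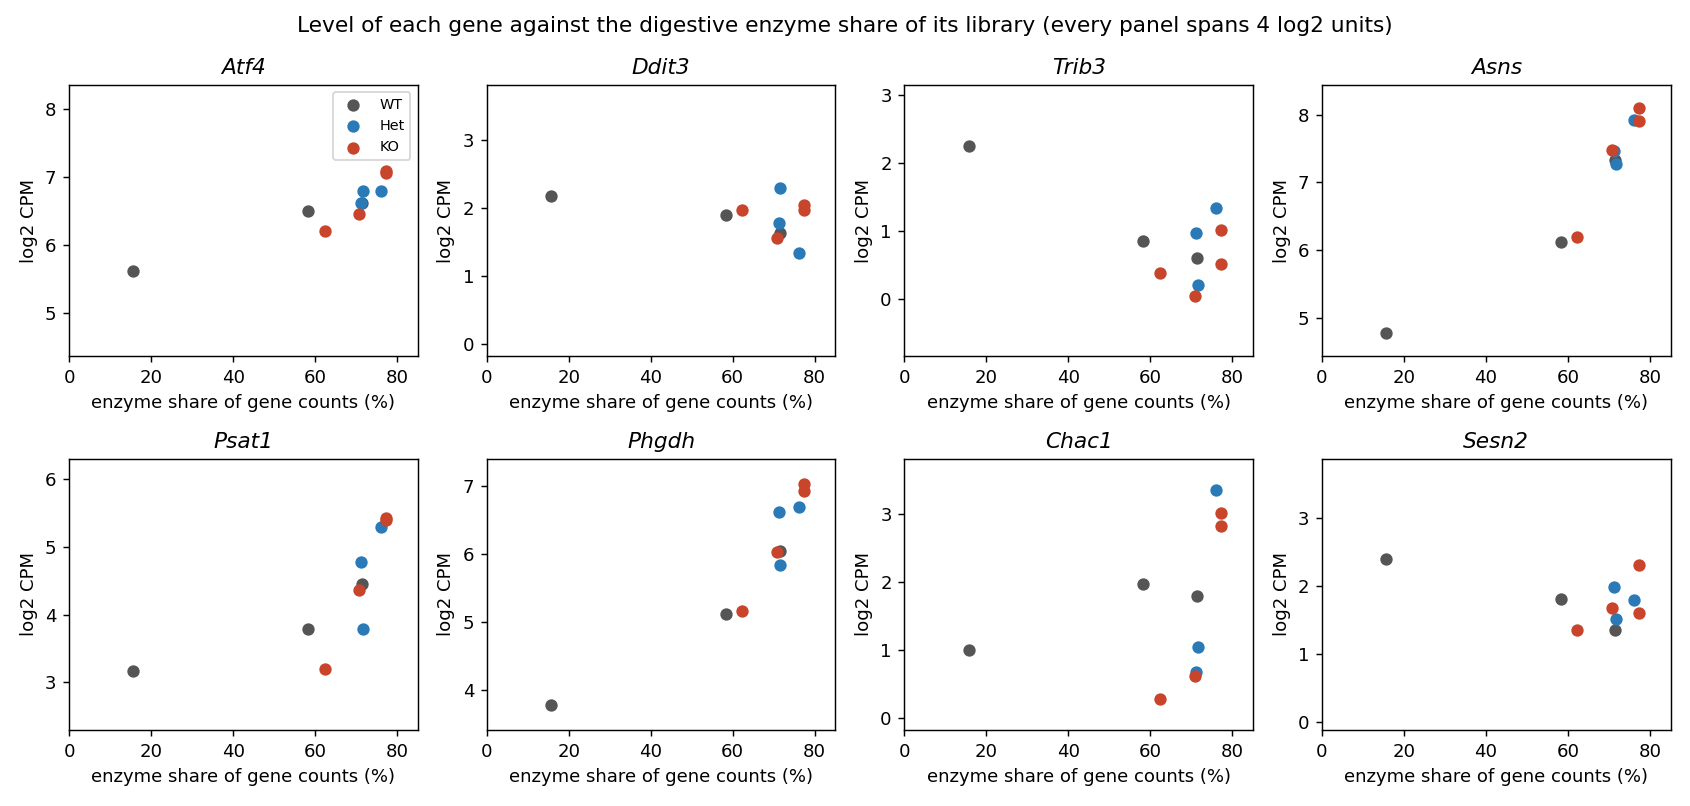
Log2 CPM of each gene (vertical axis, 4 log2 units in every panel) against the share of gene counts from 27 digestive enzyme genes (horizontal axis, percent), 1 point a library, coloured by group. On this TMM scale Asns, Phgdh, Psat1 and Atf4 climb with the share (r of 0.71 to 0.93 over 10 libraries), and the lone point at 15.7% is WT-2404.

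The synthesis enzymes also moved with each other from library to library on the TMM scale. Of the 28 pairs among the 8 genes, Asns with Phgdh had the highest r (0.98, rho 0.95), followed by Atf4 with Phgdh (0.93, rho 0.82), Atf4 with Asns (0.92, rho 0.72), Psat1 with Phgdh (0.92, rho 0.96) and Asns with Psat1 (0.88, rho 0.92). Permutation p for r adjusted over the 28 pairs was 0.000467, 0.00168, 0.00168, 0.00028 and 0.00028, and for rho 0.00168, 0.0402, 0.11, 0.00168 and 0.00476. Without the 2 libraries farthest on the first gene of each pair, r was 0.94, 0.79, 0.79, 0.94 and 0.94. All 8 genes of a library share its TMM factor. On library size alone WT-2404 was the highest for Atf4 (173 CPM) and Psat1 (31.3 CPM). It was the lowest for Asns (96.4 CPM) and Phgdh (48.2 CPM). No r of pairs was computed on that scale. Ddit3 stood apart, with r between -0.44 and 0.18 to the other 7 genes. Atf4 with Ddit3 was at -0.17 (rho 0.05) and Ddit3 with Trib3 at 0.09 (rho 0.0061).

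For each gene, the genes outside the 8 with the most similar log2 CPM over the 10 libraries were named, by Pearson's r, as a description with no test. For Asns these were Bckdk (r 0.997) and Rab3d (0.994), which without WT-2404 had 0.994 and 0.987. For Phgdh they were Tsta3 (0.991) and Mccc1 (0.990), with 0.986 and 0.978 without WT-2404. For Psat1 they were Sgms2 (0.976) and Bag4 (0.967), with 0.969 and 0.965, and for Atf4 Tspan13 (0.987) and Tram1 (0.979), with 0.974 and 0.950. Chac1 was closest to Triobp (0.942, and 0.953 without WT-2404) and Ints12 (0.941, and 0.939). The genes of lower level had less close neighbours. They were Uba2 (0.936, and 0.854 without WT-2404) and Ulk2 (0.933, and 0.812) for Trib3. Sesn2 had Apbb2 (0.915, and 0.873 without WT-2404) and Arl13b (0.867, and 0.784). Ddit3 had 1500011B03Rik (0.854, and 0.867 without WT-2404) and Higd1b (0.853, and 0.833). Over the 9 libraries without WT-2404 the closest gene was the same for Atf4 alone and another for the remaining 7, among them Aldh1l2, the mitochondrial folate enzyme, as the second closest to Psat1 (0.984).

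The rest of the pathway was read from lists of its parts. None of their genes passed edgeR's threshold in any of the 4 comparisons with all 10 libraries and TMM factors. Over all genes 7097 of 13688 had a positive log2 fold change in KO against WT and, as above, 9.6% were higher and 13.9% lower at an unadjusted p under 0.05. A list of 14 genes covered the subunits of eIF2 and the factors that phosphorylate, dephosphorylate or exchange it. Of these 13 had a positive log2 fold change in KO against WT, with a median of 0.52. At an unadjusted edgeR p under 0.05, 4 were higher and 1 lower. Eif2ak4, the kinase GCN2 that senses uncharged tRNA, had a mean ± SD of 7.83 ± 1.79 CPM over the 3 WT and 11.7 ± 0.630 CPM over the 4 KO libraries. Its log2 fold change was 0.60 in that comparison (SE 0.20, edgeR adjusted p = 0.126). Ppp1r15a, the phosphatase subunit GADD34, was at 9.76 ± 0.362 and 15.5 ± 3.80 CPM (0.67, SE 0.24, edgeR adjusted p = 0.138). Eif2ak2, the kinase PKR that binds double-stranded RNA, was the member below 0 (-0.64, SE 0.29, edgeR adjusted p = 0.208).

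Of 15 other stress factors and ATF4 targets, 14 were tested. Of these 8 were positive in KO against WT, with a median of 0.18, and 4 higher and 1 lower had an unadjusted p under 0.05. Stc2, a secreted glycoprotein, had a log2 fold change of 0.84 (SE 0.29, edgeR adjusted p = 0.129) and Vldlr, a lipoprotein receptor, 0.91 (SE 0.33, edgeR adjusted p = 0.146). Gadd45a, a growth arrest gene, had a mean ± SD of 5.99 ± 1.71 CPM over the 3 WT, 2.02 ± 0.579 CPM over the 3 Het and 2.01 ± 0.934 CPM over the 4 KO libraries. The log2 difference of KO from WT was -1.55 (SE 0.39, edgeR adjusted p = 0.116), and DESeq2 called it lower in KO (adjusted p = 0.0123) and in Het (adjusted p = 0.0320). Atf3, another factor of the response, had -0.43 (SE 0.30, edgeR adjusted p = 0.389).

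Amino acid supply was covered by 3 lists. Among 21 genes of serine, glycine, one-carbon and other amino acid synthesis, 19 were positive in KO against WT (median 0.66) and 5 higher and 1 lower had an unadjusted p under 0.05. Mthfd1, of cytosolic folate metabolism, had a log2 fold change of 0.99 (SE 0.29, edgeR adjusted p = 0.119, DESeq2 adjusted p = 0.0367). Gpt, an alanine transaminase, had 1.08 (SE 0.37, edgeR adjusted p = 0.132). The negative ones were Gldc, of glycine cleavage (-1.60, SE 0.66, edgeR adjusted p = 0.178, with 0 counts in 1 library), and Mthfd1l (-0.13, SE 0.28, edgeR adjusted p = 0.809).

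Of 13 amino acid transporters 12 were positive (median 0.65), with 2 higher and 1 lower at an unadjusted p under 0.05. Slc1a5, which imports glutamine, had 0.68 (SE 0.27, edgeR adjusted p = 0.167) and Slc7a2, a carrier of arginine and lysine, 0.65 (SE 0.29, edgeR adjusted p = 0.201). Slc38a1, another glutamine importer, was the negative one (-0.93, SE 0.28, edgeR adjusted p = 0.121, DESeq2 adjusted p = 0.0473). Of 20 cytosolic tRNA synthetases 18 were positive (median 0.42) and 3 were higher at that unadjusted level. Examples are Lars at 0.55 (SE 0.23, edgeR adjusted p = 0.178) and Cars at 0.71 (SE 0.30, edgeR adjusted p = 0.185). Rars (-0.03, edgeR adjusted p = 0.945) and Farsb (-0.02, edgeR adjusted p = 0.952) were close to 0. Among 5 relatives of the 8 genes, Sesn1 had 1.04 (SE 0.51, edgeR adjusted p = 0.242), Chac2 0.75 (SE 0.43, edgeR adjusted p = 0.302) and Trib2 -0.68 (SE 0.39, edgeR adjusted p = 0.298), and the median of the 5 was 0.09.

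Other fits called some of these genes. In edgeR without WT-2067, the fit in which Asns was called, 6 list genes were called higher in KO against WT (Eif2s2, Eif2b1, Xpot, Mthfd1, Gpt and Cth) and 2 lower (Gadd45a and Slc38a1), beside 6.22% and 7.42% of all genes. Without the same library Eif2s2, Mthfd1, Gpt and Chac2 were called higher and Gadd45a and Slc38a1 lower in Het, beside 4.16% and 4.01% of all genes. Eif2s2 encodes a subunit of eIF2, Eif2b1 one of its exchange factor, Xpot the exporter of tRNA and Cth the enzyme that makes cysteine from cystathionine. DESeq2 with all libraries called 2.24% of genes higher and 5.44% lower in KO and 2.14% lower in Het, among those given an adjusted p. Besides Gadd45a, Mthfd1 and Slc38a1 it called Cth higher in KO (1.79, DESeq2 adjusted p = 0.0433) and Slc38a1 lower in Het (DESeq2 adjusted p = 0.0411). On library size alone Eif2ak2, Gadd45a, Gldc and Slc38a1 were called lower in KO, and Eif2ak2, Jdp2, Gadd45a, Slc38a1 and Rars in Het.

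In Het against WT, which shares the WT libraries, the medians of the lists were 0.41 for eIF2 control, 0.20 for other stress factors and ATF4 targets, 0.66 for synthesis, 0.51 for transporters, 0.34 for tRNA synthetases and 0.25 for the relatives. Without WT-2404 the KO against WT medians became 0.33, 0.25, 0.39, 0.30, 0.33 and 0.34 in that order. On library size alone all 6 medians turned negative in KO against WT, at -0.57, -1.10, -0.45, -0.42, -0.82 and -1.15, beside -1.17 for all genes. The direction of these lists is therefore a direction relative to the other genes of the same libraries. In KO against WT the digestive enzyme genes were also positive, 26 of 26 with a median of 1.17 without Amy2a5, and the myeloid markers negative, 12 of 12 with a median of -1.72. Without WT-2404 the medians were 0.62 over all 27 enzyme genes and -0.89 over the myeloid markers. The part of these genes in the pathway values was not tested.

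**Figure D4:**
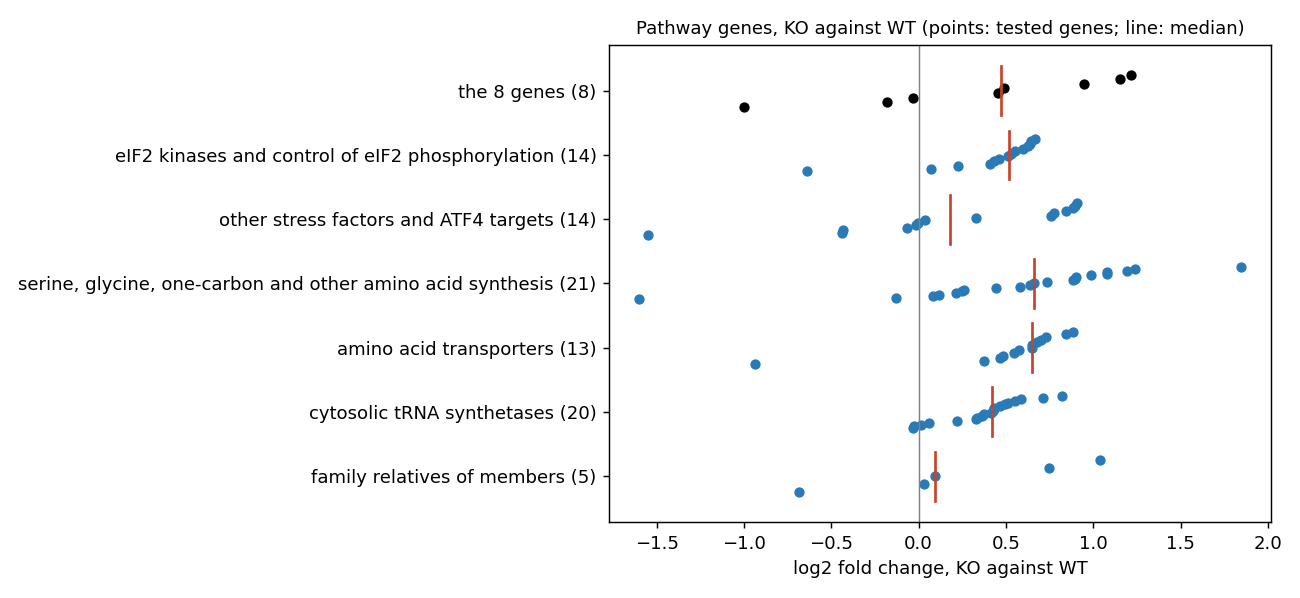
Log2 fold change in KO against WT (horizontal axis) of every tested gene of the pathway lists (vertical axis, number tested in brackets), 1 point a gene, with a red line at each median. Most points of eIF2 control, synthesis, transporters and tRNA synthetases lie above 0 (medians 0.42 to 0.66), while the other stress factors spread from -1.55 to 0.91, and no gene shown passed the threshold in this fit.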

How the data were processed

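The authors deposited raw read counts, 1 row a gene symbol and 1 column a mouse. The submitters' processing notes name DRAGEN, STAR, Cufflinks and the build mm10, with no role given. The counting tool and its use of strand are not given in the sources used here, so reads of overlapping genes could be shared. A further allele carried by all groups is not reported here. Per the labels' protocols RNA was taken with column kits, the text attached to WT-2404, which speaks of all groups, names pulverised frozen tissue, and a stranded mRNA kit is named for the other 9 libraries. The 2 rows that name no gene (2.59% to 8.71% of counts lay outside genes) were left out, and 0 other columns were left over.

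Counts were tested in R 4.3.3 with edgeR 4.0.16 (TMM factors, filterByExpr with a minimum count of 10, robust glmQLFit and glmQLFTest, two-sided) in 1 fit over all 10 libraries, with the Benjamini-Hochberg method over 13688 genes. Of 24421 genes 6269 had no count. Log2 CPM used a prior count of 2. Intervals use the t quantile of the fit. limma 3.58.1 (voom) and DESeq2 1.42.0 served as alternatives, beside other scalings, filters and leaving out each library. Replicates differed beyond sampling noise (chi-square per degree of freedom 26.5 to 988). At this depth 3 counts, the limit a count of 0 allows, are 0.0501 to 0.395 CPM, for counting error only. Exon lengths came from GENCODE on GRCm38. The script was checked on simulated counts. The 8 genes, the lists and the tests were chosen with earlier results of these data known. Named pathway genes are up to 2 per list and direction with the smallest unadjusted p in KO against WT, and the genes of highest r for each of the 8. The 3 libraries high in Chac1, and Aldh1l2, Eif2s2, Eif2b1, Xpot, Cth and Jdp2, were singled out after their values were seen.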

Additional observations from a re-analysis of the deposited data

How the results depend on the processing

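No paired analysis was possible because the labels give mouse numbers that no 2 groups share. None of the 8 genes passed the threshold in edgeR, and this held under every alternative except for Trib3 on library size alone (1 gene in KO and 1 in Het, against WT) and Asns without WT-2067 (0 to 1 genes in KO against WT over the fits that leave out a library). The medians of the 8 genes on library size alone were -0.72 for KO and -0.72 for Het. Genes passing over the whole table numbered 2835 and 3125 on library size alone, 1009 and 400 with DESeq2 (436 for the slope), and 0 to 1933, 0 to 1158 and, for the slope, 0 to 11 when a library was left out, the highest counts of KO and Het against WT being those without WT-2067. The causes were not tested.

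Log2 fold changes that turned sign, none of them past the threshold, were as follows. On library size alone Atf4, Psat1 and Chac1 had -0.63, -0.22 and -0.81 in KO against WT, -0.70, -0.28 and -0.73 for Het, and -0.30, -0.10 and -0.39 in the slope. In KO against Het, where values lie near 0, Asns had -0.0086 with RLE factors, -0.0123 and Sesn2 0.0844 on library size alone, Atf4 -0.0016 and Asns -0.0211 with the enzyme genes left out, and Asns -0.0083 with DESeq2. With limma voom Chac1 had -0.25 in KO against WT, Ddit3 -0.0071 and Sesn2 0.0153 in KO against Het, and Ddit3 0.0177 and Sesn2 0.0468 in the slope.

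Leaving out 1 library at a time gave ranges that cross 0. In KO against WT they were -0.15 to 0.13 for Ddit3, -0.40 to 0.16 for Sesn2 and -0.0243 to 0.81 for Chac1. In Het against WT they were -0.36 to 0.14 for Ddit3, -0.88 to 0.18 for Trib3, -0.38 to 0.19 for Sesn2 and -0.78 to 1.0 for Chac1. In KO against Het they were -0.11 to 0.14 for Atf4, -0.22 to 0.25 for Asns, -0.17 to 0.33 for Ddit3, -0.24 to 0.11 for Sesn2, -0.61 to 1.28 for Chac1, -0.22 to 0.48 for Psat1 and -0.21 to 0.27 for Phgdh. In the slope they were -0.0641 to 0.0574 for Ddit3 and -0.20 to 0.0683 for Sesn2.

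For the relation with the digestive enzyme share, r without the 2 farthest libraries was 0.48 for Trib3, 0.58 for Sesn2 and 0.85 for Chac1, the last now past the threshold. On counts outside the enzyme list r was -0.71 for Ddit3, -0.85 for Trib3 and -0.79 for Sesn2, all 3 past it, but by rank none passed (rho -0.39, -0.31 and -0.37, adjusted permutation p 0.339, 0.385 and 0.339). At this depth Trib3, Chac1, Ddit3 and Sesn2 rest on few counts, with 10, 17, 26 and 29 in their lowest libraries.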
